A study of Homo sapiens with 22 samples.

Results

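The 47 genes described here encode the machinery of DNA replication and factors tied to entry into S phase. They were chosen by symbol, with earlier results of these data known. All 47 were found among the 33538 genes of an experiment on untreated WM989 cells and among the 36601 genes of experiments on WM983B cells and on treated WM989 cells. They fall into 10 roles. 6 encode the MCM2-7 helicase, 5 origin licensing and firing, 5 the partners of the active helicase, 6 the sliding clamp and its loaders, and 9 polymerases and primase. A further 3 encode the single-strand binding complex RPA, 2 the processing of Okazaki fragments, 4 nucleotide synthesis and 2 DNA repair. The last 5 (CCNE1, CCNE2, DTL, CDCA7 and SLBP) are grouped here as G1/S genes.

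In G1, ORC, CDC6 and CDT1 load the MCM2-7 ring onto origins, and kinases then recruit CDC45 and the GINS complex to turn it into the active CMG helicase. PCNA, loaded by the RFC complexes, holds the polymerases on the template, RPA coats single strands, and FEN1 and LIG1 finish the lagging strand. E2F transcription factors switch most of these genes on at the end of G1, once cyclin-dependent kinases have relieved the block by the retinoblastoma protein. In melanoma cells with a BRAF mutation this switch lies downstream of the MAP kinase pathway that targeted drugs inhibit.

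WM989 and WM983B are BRAF-mutant human melanoma cell lines, each used as a clone grown from a single cell. In both lines the study separates a primed state from a drug-susceptible state. In WM989 the primed state is rare and was tied to survival under targeted therapy. The first experiment held lineage-barcoded, untreated WM989 cells (12531 cells in 8 wells), some of them sorted for high EGFR and NGFR, 2 surface markers of the primed state, and others as mixed cells. The second held untreated WM983B cells (1449 cells, 1 library). The third held lineage-barcoded WM989 cells in 8 libraries (40021 cells), 2 for each of 4 groups kept for 5 days. The methods describe the 2 as parallel replicates, while the sample labels call one of each group Mix and the other Primed. They are r1 and r2 here, as in the cell labels, and were treated as replicates. These groups were untreated Control, TGFB1 at 5 ng/mL, TGFBRi (LY2109761, an inhibitor of the TGF-beta receptors TGFBR1 and TGFBR2) at 4 µM and PI3Ki (GDC-0941, an inhibitor of the kinase PI3K) at 2 µM. ATAC-seq, which maps open chromatin, was made from WM989 cells right after sorting into 4 sorts with 3 libraries each. These were cells high in EGFR and NGFR together (EGFR/NGFR-high), high in either marker (EGFR-high or NGFR-high), and cells that the labels call Mix. The methods name a sort negative for both markers in the same place, and whether Mix stands for that sort was not stated.

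Total counts per well or library lay between 35882876 and 177318308 UMIs (unique molecular identifiers, which count RNA molecules) in the first experiment and between 70239657 and 122420544 in the third, and WM983B had 102738398. The sort of each well was not given in the labels used. All 7 melanocyte markers searched (SOX10, MITF, PMEL, MLANA, TYR, DCT, S100B) were detected in every library, with summed levels of 1490 to 5554 CPM in the wells (UMI counts scaled to the same total in every library), 2326 in WM983B and 3509 to 6544 in the treatment experiment. The 7 markers of immune, endothelial and epithelial cells together reached 29.3 to 117 CPM, mostly from CD68. A cell barcode was shared between libraries in 0.303% of cells in the first and 0.969% in the third experiment, and these cells were kept.

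The start regions of the genes are shown first, since E2F motifs are known from many of them. RefSeq promoter sequences on GRCh38.p14 were given for 40 of the 47 genes (none for MCM4, MCM5, GINS4, POLD3, CCNE2, RPA2 and RPA3), each of 300 bases from 250 before to 50 after the annotated start. For 10 genes that stand for 6 roles, the 120 bases before the start are printed 5′ to 3′ on the strand of the gene. Capitals mark 3 kinds of letters. These are the E2F motif (TTTCCCGC, TTTCGCGC, TTTGCCGC or TTTGGCGC on either strand), a second E2F form called the core here (GGCGGGAA or TTCCCGCC), and the CCAAT box (CCAAT or ATTGG). Matches can overlap, and capitals at the edge of a sequence can belong to a match that runs past it.
MCM3 (chr6:52284743-52284862, − strand): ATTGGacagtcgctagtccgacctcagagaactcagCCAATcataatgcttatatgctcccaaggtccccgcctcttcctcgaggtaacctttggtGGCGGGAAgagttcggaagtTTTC
MCM6 (chr2:135876444-135876563, − strand): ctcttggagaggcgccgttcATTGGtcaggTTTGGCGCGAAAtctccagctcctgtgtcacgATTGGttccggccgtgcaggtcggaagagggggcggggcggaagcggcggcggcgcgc
MCM7 (chr7:100101398-100101517, − strand): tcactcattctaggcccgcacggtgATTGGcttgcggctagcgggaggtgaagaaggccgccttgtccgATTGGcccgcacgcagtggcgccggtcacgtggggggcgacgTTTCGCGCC
CDT1 (chr16:88803669-88803788, + strand): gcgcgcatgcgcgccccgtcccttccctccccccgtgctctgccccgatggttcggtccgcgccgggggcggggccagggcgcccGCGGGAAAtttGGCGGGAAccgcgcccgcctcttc
GINS2 (chr16:85688955-85689074, − strand): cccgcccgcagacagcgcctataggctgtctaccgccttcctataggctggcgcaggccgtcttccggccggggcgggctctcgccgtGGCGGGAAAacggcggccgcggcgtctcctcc
PCNA (chr20:5126623-5126742, − strand): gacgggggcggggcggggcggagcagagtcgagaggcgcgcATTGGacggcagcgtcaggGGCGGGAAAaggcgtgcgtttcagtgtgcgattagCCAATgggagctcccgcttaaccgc
TYMS (chr18:657533-657652, + strand): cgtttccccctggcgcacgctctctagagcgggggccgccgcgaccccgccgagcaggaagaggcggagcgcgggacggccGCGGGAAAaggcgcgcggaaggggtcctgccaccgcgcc
RRM2 (chr2:10122619-10122738, + strand): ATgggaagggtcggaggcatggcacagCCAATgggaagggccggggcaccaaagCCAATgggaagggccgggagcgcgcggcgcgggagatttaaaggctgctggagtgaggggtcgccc
DTL (chr1:212035628-212035747, + strand): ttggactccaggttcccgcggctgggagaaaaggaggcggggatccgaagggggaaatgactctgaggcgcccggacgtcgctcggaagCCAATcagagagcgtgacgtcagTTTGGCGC
CDCA7 (chr2:173354752-173354871, + strand): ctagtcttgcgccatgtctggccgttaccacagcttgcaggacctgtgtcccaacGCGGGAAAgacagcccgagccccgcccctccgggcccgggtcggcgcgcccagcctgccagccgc

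In MCM6 the E2F motif stands on both strands in overlapping letters, between 2 CCAAT boxes. GINS2 and PCNA carry the core and the E2F motif in 1 run of capitals, and CDT1 has them a few bases apart. RRM2, the small subunit of the enzyme that makes deoxynucleotides, held no E2F motif of these letters in its window and 3 CCAAT boxes.

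Over the 40 windows, 20 genes (50%) held the E2F motif, against 3.34% of all 27195 promoters and 6.30% of the 4568 promoters of genes that reached 20 CPM. The core stood in 10 windows (25%), against 3.19% of all promoters. Either form was found in 24 genes, and 16 genes held neither, among them CDC45, ORC1, TK1, FEN1, UNG and CCNE1. The 26 matches of the E2F motif lay close to the start. 15 began in the 100 bases before it and 5 after it. Counts of 2 or more came from MCM2, MCM3, MCM6 and MCM7, all of the helicase. The matches of MCM2 overlap in the same stretch, read on both strands, and those of MCM6 do so in pairs. The CCAAT box was present in 57.5% of the windows (35.7% of all promoters). The CHR element (TTTGAA or TTCAAA), which is known from mitotic genes, was found in RRM1 alone, 2.5% of the windows against 15.4% of all promoters. In the 16 windows given for a list of 20 mitotic genes, CHR and the E2F motif changed places, with 62.5% and 12.5%, while CCAAT was the most frequent of the 3 motifs in both sets (87.5% in the mitotic genes). The median GC content was 66.7% in the windows of the replication genes, 65.7% in genes at 20 CPM or more and 58.3% in all promoters. The median count of CpG (a C followed by a G) was 31, 27 and 14 in the same order. The part of GC and CpG content in these shares was not tested. A match is a description of letters and not evidence that a factor binds.

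**Figure D1:**
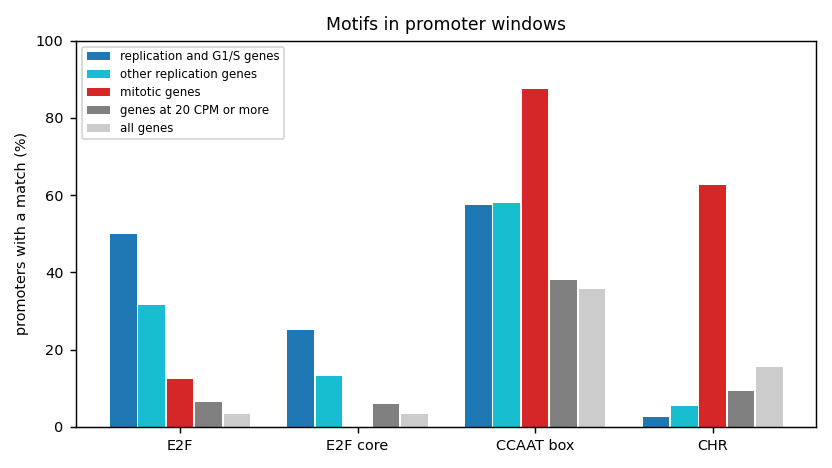
Percent of promoter windows of 300 bases with at least 1 match, for 4 motifs (x axis) and 5 sets of genes (bars). The E2F motif is in 50% of the 40 windows of replication genes and in 3.34% of all promoters, while CHR is in 2.5% and 15.4%.

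Nearly all of these starts lay in open chromatin of the sorted WM989 cells. A peak called by the authors' peak caller lay within 500 bp of the start in all 12 libraries for 39 of the 40 genes (97.5%), against 47.6% of the 27195 genes and 96.0% of those at 20 CPM or more. The median fold enrichment of the peak over local background in the 12 libraries was highest at PCNA (130), MCM7 (113), ORC6 (103) and TK1 (103). It was lowest at POLE2 (9.7) and RFC1 (12.1) among genes with a peak in every library. PRIM2, a primase subunit, was the exception and is described here because its values stood apart. Its fold enrichment was 29.6 ± 3.2 in EGFR-high, 40.5 ± 7.2 in EGFR/NGFR-high and 33.3 ± 7.8 in NGFR-high libraries (mean ± SD, n = 3 each). In the 3 Mix libraries it was 0, 3.30 and 0, where 0 stands for no called peak, so that the Mix libraries lay below all 9 others. The called peak lay within 500 bp of the annotated PRIM2 start in 10 libraries and within 100 bp in 2. These values therefore belong to a peak near that start and need not be those of the main promoter of the gene, and other starts were not examined. The PRIM2 window held no CpG and had a GC content of 38.3%. The difference was not tested, since it was noticed among 40 genes.

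The level of each gene by cell cycle phase was taken from the authors' phase calls and is a description, because the calls rest on the same counts. The gene list behind the calls was not stated. The list that Seurat ships for S phase holds 23 of the 47 genes, and 24 are outside it. In both WM989 experiments all 47 genes were highest in S cells. In WM983B, 45 were, and TK1 (31.99, 103 and 106 CPM in G1, S and G2M cells) and RPA3 (279, 429 and 466 CPM) were highest in G2M. The median ratio of S to G1 CPM over the genes was 3.09 in untreated WM989 cells, 3.85 in WM983B and 2.79 in the treatment experiment. Inside the Seurat list the medians were 3.49, 4.13 and 3.12, and outside it 2.91, 3.62 and 2.63 in the same order. A ratio above 2 was seen for 40, 42 and 40 genes.

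CCNE2, which encodes a cyclin E, had the widest range in each experiment. It had 2.31 CPM in G1 and 25.05 CPM in S cells in the first experiment, 2.64 and 83.7 CPM in WM983B, and 2.49 and 32.8 CPM in the third. These are ratios of 10.8, 31.7 and 13.2. The order of the next genes differed between experiments. RRM2 had ratios of 4.97, 17.8 and 11.8, and MCM10, which helps to fire origins, had 8.77, 14.6 and 7.04. The ratios of CDC45 were 6.68, 11.02 and 7.26, and those of DTL, an adaptor of the ligase that destroys CDT1 in S phase, were 5.90, 9.12 and 5.71. At the other end, some genes differed little between S and G1 cells. POLD2, a subunit of polymerase delta, had ratios of 1.38, 1.38 and 1.22, and RFC1, the large clamp loader subunit, had 1.46, 1.55 and 1.57. RPA3, the smallest RPA subunit, had 1.61, 1.54 and 1.496.

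The genes also differed in their levels in G2M cells. These were below the levels in G1 cells for 4 genes in all 3 experiments (MCM6, UNG, MSH6 and CDCA7). All 4 are in the Seurat list for S phase, and the part of the phase calls in this was not tested. UNG, a glycosylase that removes uracil from new DNA, had 12.9, 44.6 and 9.84 CPM in G1, S and G2M cells of the first experiment. MCM6 had 22.1, 81.2 and 18.7 CPM in the same order. The median S over G2M ratio of the genes was 1.75, 1.78 and 1.84 in the 3 experiments.

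**Figure D2:**
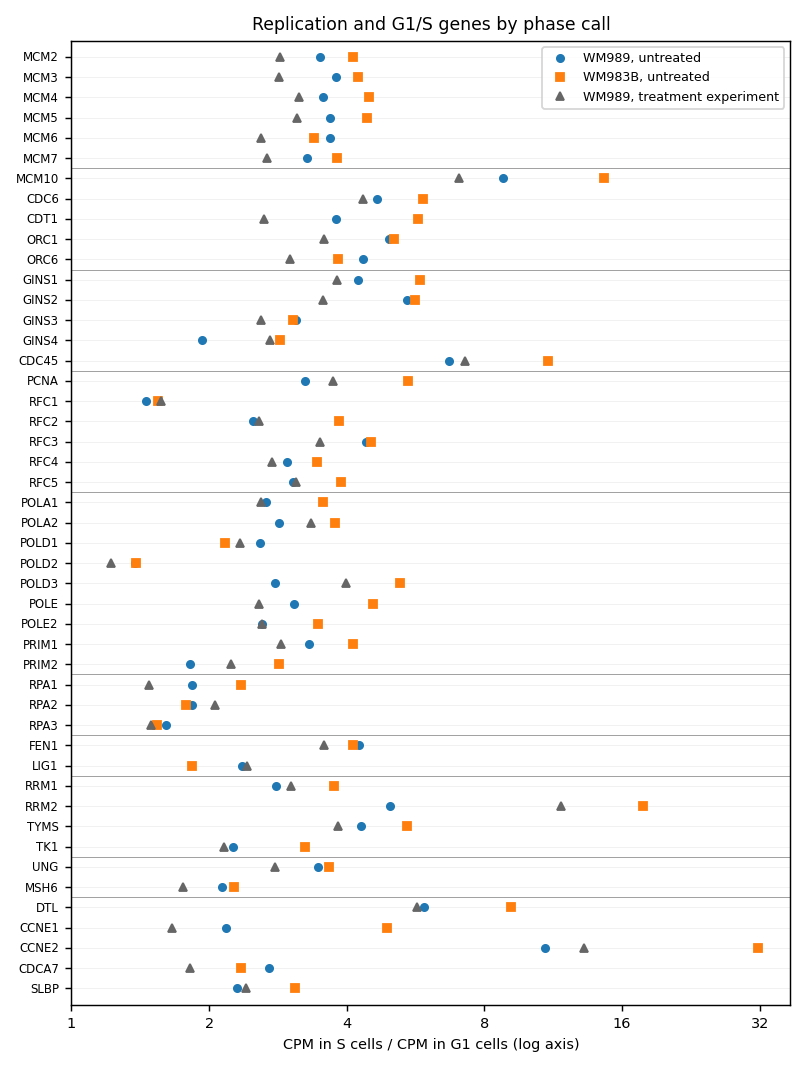
Ratio of CPM in S cells to CPM in G1 cells for each of the 47 genes (y axis, grouped by role), on a log axis, in 3 experiments (points). CCNE2 is the highest in each experiment at 10.8, 31.7 and 13.2, and POLD2 is the lowest at 1.38, 1.38 and 1.22.

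Levels differed between clusters of WM989 cells as well. In the first experiment the summed level of the 47 genes was 3935 CPM in cluster 1 (67.1% S cells) and 3176 CPM in cluster 0 (78.2% S cells), while it was 1254 CPM in cluster 10. Of the 47 genes, 33 were highest in cluster 1. Another 7 were highest in cluster 0, namely MCM6, UNG, DTL, CCNE1, CDCA7, MSH6 and the histone mRNA binding protein SLBP. In the treatment experiment, clustered on its own, 22 genes were highest in its cluster 8, 16 in its cluster 1 and 5 in its cluster 0. The 5 were MCM6, UNG, DTL, CDCA7 and MSH6. CDT1 and ORC1 were highest in cluster 12, CCNE1 in cluster 3 and POLD2 in cluster 11. None was highest in its primed clusters 4 and 10. The remaining 7 genes of the first experiment (GINS4, POLA2, POLD3, PRIM2, RRM2, TK1 and RPA3) were highest in cluster 9, a primed cluster with 62.9% G2M cells and a summed level of 3187 CPM. In the primed clusters 2 (93.8% G1 cells) and 8, the summed levels were 1567 and 1747 CPM.

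Primed WM989 cells of the first experiment had lower levels of most replication genes than drug-susceptible cells. States are clusters of these same counts and the cells form 1 sample, so the values that follow carry no test, and r1, r2 and wells stand in for replicates. Per the methods, the cells of each sort were loaded over 2 wells, so the 8 wells include repeat loads of the same cultures and are not 8 independent samples. Of the 47 genes, 42 were lower in the 2843 primed than in the 9688 drug-susceptible cells, and 38 were lower in all 8 wells. Among the 36 genes at 20 CPM or more in a state, 30 were lower in every well and 1 was higher in every well, against 38.2% and 29.8% of the 6316 genes at that level. The median log2 difference of CPM, primed minus drug-susceptible, was −0.48 (−0.61 in r1 and −0.47 in r2), and the median within a well lay between −0.79 and −0.41, against a median near 0 over all genes at 20 CPM or more. Among the same 36 genes, 13 were past 1.5-fold lower in both r1 and r2 and 0 were past it higher, against 13% and 14.8% of all genes at that level. Without well 2 the 13 became 8. The share of S cells moved with the state. It was 10.7% in primed and 44.4% in drug-susceptible cells, and that of G1 cells was 73.7% and 25.5%. The median percent of mitochondrial reads was 7.95 and 14.1, and the median UMIs per cell were 58253 and 52835.

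GINS2, a subunit of the GINS complex, had the largest difference. In primed cells of wells 1 to 8 it had 27.0, 26.4, 31.9, 34.1, 35.5, 38.5, 41.6 and 39.4 CPM. In drug-susceptible cells of the same wells it had 76.7, 70.3, 66.0, 70.1, 92.7, 90.3, 77.1 and 75.7 CPM. The highest primed value lay below the lowest drug-susceptible one, and the log2 difference was −1.16 over all cells (32.6 CPM, 95% counting interval 31.8 to 33.4, against 72.6 CPM, 71.9 to 73.3). The other helicase partners CDC45 (−0.82) and GINS1 (−0.68) were past the fold as well, whereas GINS4 was higher in primed cells by 0.50 (0.25 in r1 and 0.62 in r2) and lower in 1 well.

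In the helicase itself, MCM6, MCM3 and MCM2 were past the fold. MCM6 ranged over the wells from 16.7 to 35.0 CPM in primed (median 31.3) and from 34.8 to 78.5 CPM in drug-susceptible cells (median 50.8), so that the ranges just met. MCM3 ranged from 34.4 to 69.8 CPM (median 55.4) against 75.3 to 133 CPM (median 100.2), with no overlap. Their log2 differences were −0.94 and −0.87, and that of MCM2 was −0.64. MCM4 (−0.52), MCM5 (−0.56) and MCM7 (−0.58) were lower in all 8 wells as well without passing the fold in both r1 and r2.

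Origin licensing genes were lower in primed cells throughout. ORC6, a subunit of the origin recognition complex, had 31.1 to 67.5 CPM in primed (median 43.2) and 67.7 to 109 CPM in drug-susceptible cells (median 90.3), a log2 difference of −0.92. MCM10 (−0.94) and ORC1 (−0.80) differed by a similar amount at under 20 CPM in both states, and CDT1 (−0.53) and CDC6 (−0.42) by less. Among nucleotide enzymes, TYMS, the thymidylate synthase, had 26.0 to 48.9 CPM in primed and 57.9 to 93.8 CPM in drug-susceptible cells (−0.98), again with no overlap between wells. TK1 differed by −0.33, RRM1, the large subunit of ribonucleotide reductase, by −0.22, and RRM2 by 0.18 with opposite signs in r1 (−0.11) and r2 (0.13).

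UNG was at 10.4 to 18.2 CPM in primed and at 20.03 to 39.7 CPM in drug-susceptible cells, a log2 difference of −1.02. CDCA7, which is known as a target of MYC and E2F and as a chromatin protein, had 16.9 to 34.0 and 38.3 to 76.2 CPM (−0.99). CCNE1, the other cyclin E, differed by −0.95 at under 20 CPM, and CCNE2 by −0.26. RFC3 (−0.81), PRIM1 (−0.63) and RPA1 (−0.66) complete the 13 genes past the fold. PCNA (−0.13) and RFC1 (−0.04) were the smallest differences among genes that were lower. POLD3, a subunit of polymerase delta, was higher in primed cells in all 8 wells by 0.37, with 47.8 to 61.7 CPM (median 52.1) against 34.6 to 61.1 CPM (median 45.3), and the ranges overlapped.

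WM983B, profiled as 1 library without a replicate check, did not show this difference. 17 genes were lower and 30 higher in the 731 primed than in the 718 drug-susceptible cells, with a median of 0.02, the same as over all genes at 20 CPM or more. The drug-susceptible cells were those of cluster 1 (628 cells) and cluster 3 (90 cells, 87.8% of them called G2M). None of the 43 genes at 20 CPM or more was past 1.5-fold, against 4.1% of 6856 genes higher and 1.97% lower. The values ran from POLE2 at −0.27 (11.1 CPM, counting interval 10.2 to 12.1, against 13.4 CPM, 12.5 to 14.4) to CCNE2 at 0.33 (37.4 CPM, 35.7 to 39.2, against 29.9 CPM, 28.4 to 31.4). TYMS had 353 CPM (348 to 359) in primed and 324 CPM (319 to 329) in drug-susceptible cells. GINS2 had 39.9 CPM (38.2 to 41.7) and 38.4 CPM (36.8 to 40.1). The share of S cells was 31.3% and 30.1%, and that of G1 cells 37.8% and 29.0%, so that the states of this line differed less in phase than those of WM989.

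In the treatment experiment the primed WM989 cells were again lower. 42 genes were lower over all libraries together, with a median of −0.36. Of 38 genes at 20 CPM or more, 15 were lower in primed cells in each of the 8 libraries and 0 were higher in each, against 18.2% and 20.3% of 6138 genes. The 15 were MCM2, MCM4, MCM5, MCM7, GINS2, ORC6, PCNA, RFC2, RFC3, RFC4, RFC5, PRIM1, LIG1, RPA1 and RPA3. The median of the genes within a library was −0.74 and −0.51 in Control r1 and r2, −0.34 and −0.43 in TGFB1, −0.18 and −0.44 in TGFBRi, and −0.02 and −0.42 in PI3Ki. The PI3Ki r1 library held 25 primed cells, and without it 27 genes were lower in every library, a count taken after the data were seen. No share of all genes is given for that setting, so the 27 cannot be set against the 18.2%. S cells made up 18.7% of primed and 35.7% of drug-susceptible cells. Depth moved with the state as well, with a median of 11211 UMIs in primed and 16825 in drug-susceptible cells, and so did the median percent of mitochondrial reads (7.79 and 10.8).

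**Figure D3:**
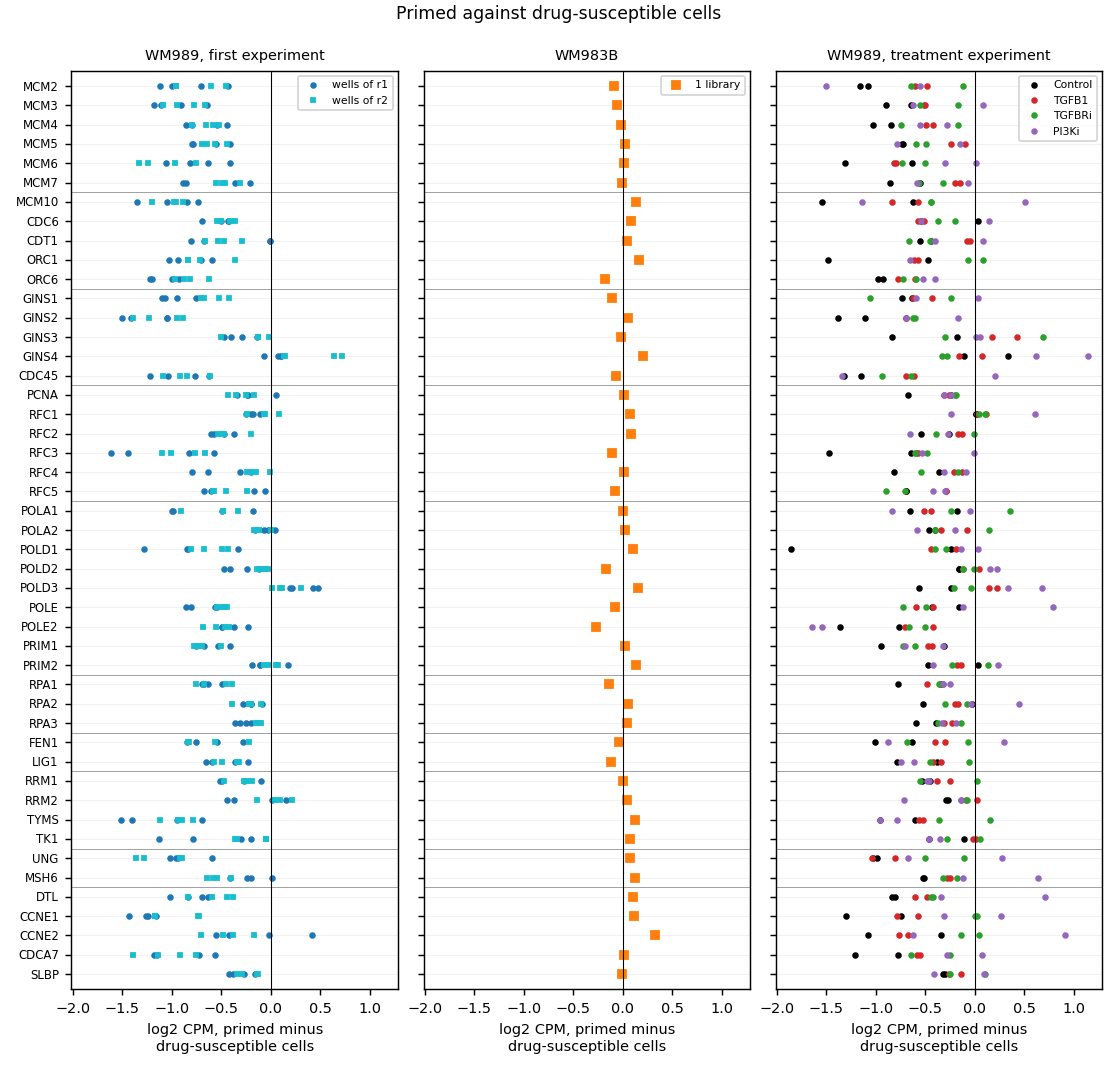
Log2 CPM of primed minus drug-susceptible cells for each gene (y axis), with 1 point for each well of the first WM989 experiment (left), for the WM983B library (middle) and for each library of the treatment experiment (right). Points lie left of 0 for 38 genes in all 8 wells, while the WM983B values lie between −0.27 and 0.33. ORC1 in the PI3Ki r1 library had no count in primed cells and is not drawn.

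Among cells with the same phase call, the direction differed between S and G2M cells of the first experiment. In S cells of the first experiment, 44 genes were higher in the 305 primed than in the 4300 drug-susceptible cells, 40 of them in both r1 and r2. The median over the 47 genes was 0.45 (0.46 in r1 and 0.37 in r2). Over those of the 47 at 20 CPM or more it was 0.41, against 0.09 over all genes at that level. 10 of the 44 genes at 20 CPM or more were past 1.5-fold higher and 0 lower, against 14.6% and 9.04% of 6348 genes. CCNE2 (1.46), RRM2 (1.44), POLD3 (1.25) and GINS4 (1.23) led the 10, followed by RRM1, PCNA, POLA2, PRIM2, RFC4 and RFC2 with 0.90 to 0.61, and UNG (−0.14), CDCA7 (−0.12) and CCNE1 (−0.07) were the exceptions. In G1 cells, 2 of 25 genes at that level were past the fold higher and 1 lower, against 15.4% and 12.2% of 6157 genes. The higher ones were RRM2 (1.43) and POLD3 (1.39), and the lower one was CDCA7 (−0.66). The G1 median of the 47 genes was 0.35 over all cells and 0.19 and 0.13 within r1 and r2. Among the 25 genes at 20 CPM or more it was 0.26 over all cells, against 0.08 over all genes at that level. CCNE1 (−0.87) and TYMS (−0.54) were lower there as well but did not meet the rule for the fold. In G2M cells, 32 of the 47 genes were lower in primed cells, 29 of them in both r1 and r2, with a median of −0.17 (−0.24 in r1 and −0.25 in r2). Over those of the 47 at 20 CPM or more it was −0.13, against 0.05 over all genes at that level. Of 35 genes at 20 CPM or more, 6 were past the fold lower and 2 higher, against 12% and 14.3% of 6382 genes. The lower ones were MCM6 (−1.51), GINS2 (−1.24), MCM3 (−0.98), CDCA7 (−0.97), TYMS (−0.81) and RPA1 (−0.64). The higher ones were again RRM2 (1.05) and POLD3 (1.02).

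Within wells the G1 median lay between 0.20 and 0.42 in the 4 wells of r1 and between −0.10 and 0.12 in those of r2. Wells 5 and 6, both of r2, held only 18 and 30 drug-susceptible G1 cells.

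The other experiments showed another order. In WM983B the median was 0.14 in S cells (41 genes higher), −0.26 in G1 cells (41 genes lower) and 0.01 in G2M cells (23 genes lower). Over all genes at 20 CPM or more it was 0.03, 0.01 and 0.04, and over those of the 47 at that level 0.14, −0.28 and 0.02. In the treatment experiment the median of the 47 was 0.04 in S, −0.04 in G2M (26 genes lower) and −0.47 in G1 cells (41 genes lower, −0.52 in r1 and −0.45 in r2). Over all genes at 20 CPM or more it was −0.02, −0.04 and −0.01, and over those of the 47 at that level 0.06, −0.10 and −0.46. The G2M median of the 47 thus lay near that of all genes at 20 CPM or more. Summed over the 47 genes, primed G1 cells had 1098 CPM and drug-susceptible G1 cells 1060 CPM in r1 of the first experiment, and 1879 and 1742 CPM in r2. Over both together these were 1466 and 1259 CPM, a wider gap, since r1 and r2 differed in level and held unlike shares of the states. In the third experiment they were 1290 and 1673 CPM. There state and treatment are mixed, because 1790 of the 2231 primed G1 cells came from TGFB1 libraries. Within a library the G1 median was −0.85 and −0.63 in Control r1 and r2, −0.38 and −0.46 in TGFB1, −0.46 and −0.52 in TGFBRi, and −0.15 and −0.20 in PI3Ki, where r1 held 14 primed G1 cells. The median was thus below 0 in each of the 8 libraries, Control included, and above 0 in r1 and r2 of the first experiment. All genes at 20 CPM or more had a median of 0.08 in the G1 cells of that first experiment, r1 and r2 together. Phase calls may rest in part on these genes, and the part of the calls in these differences was not tested.

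TGFB1 lowered replication genes in the libraries as a whole. In the test over all 18389 genes (edgeR quasi-likelihood test, Benjamini-Hochberg adjustment), 20 of the 47 genes fell and 1 rose against Control, while 12.7% of all genes fell and 16.3% rose. The median log2 fold change was −0.16 over the 47 genes, of which 38 were below 0, and 0.01 over all genes. The standard errors were small, with a median of 0.0676. The CPM values given with these tests are scaled by TMM, a factor for each library that sets most genes to no change, in addition to its total. Without these factors every log2 fold change of PI3Ki would move by −0.10 in all cells, by −0.07 in drug-susceptible S cells and by −0.12 in drug-susceptible G1 cells, and those of TGFB1 by 0.01 to 0.02. In these sums a smaller share of S cells and less RNA per cell cannot be told apart. The share of S cells was 36.7% and 37.5% in Control r1 and r2, 29.1% and 27.2% in TGFB1, 39.9% and 36.9% in TGFBRi, and 33.8% and 32.2% in PI3Ki. That of primed cells was 2.26% and 4.47% in Control, 29.1% and 31.3% in TGFB1, 2.26% and 4.32% in TGFBRi, and 0.647% and 1.21% in PI3Ki. Depth and mitochondrial reads moved with the treatment too. The median UMIs per cell were 18457 and 21720.5 in Control, 13767 and 14284 in TGFB1, 14918 and 13013 in TGFBRi, and 17386 and 20059 in PI3Ki. In drug-susceptible G1 cells they were 16669 and 20047.5 in Control and 12656 and 13486 in TGFB1. The median percent of mitochondrial reads was 10.97 and 10.8 in Control, 9.62 and 9.44 in TGFB1, 11.003 and 10.5 in TGFBRi, and 11.4 and 10.4 in PI3Ki. Their part in the changes was not tested. With 2 libraries a group, an exact permutation test of such a share of cells cannot go below p = 0.333.

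Within the helicase, MCM2, MCM3, MCM4 and MCM6 fell with TGFB1. MCM2 had 34.4 and 33.2 CPM in Control r1 and r2 and 27.3 and 26.2 CPM in TGFB1, a log2 fold change of −0.34 ± 0.0661 (SE, adjusted p = 0.000426). MCM4 had 201 and 193 CPM against 166 and 160 CPM (−0.27, adjusted p = 0.00332). In both genes the TGFB1 libraries lay below the Control libraries, and so they did for MCM6 (−0.27) and MCM3 (−0.26). MCM5 (−0.13, adjusted p = 0.154) and MCM7 (−0.11, adjusted p = 0.236) did not pass. Of the helicase partners only GINS1 fell, from 36.9 and 40.0 CPM to 30.6 and 31.0 CPM (−0.32 ± 0.0671, adjusted p = 0.000767). GINS2 was at −0.15 (adjusted p = 0.103), CDC45 at −0.10, GINS3 at −0.09 and GINS4 at 0.09. Among licensing genes CDT1 fell (−0.20, adjusted p = 0.0269), whereas ORC6 (−0.19, adjusted p = 0.0535), MCM10 (−0.19, adjusted p = 0.0582), ORC1 (−0.14) and CDC6 (0.01) did not pass.

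CDCA7 had the largest change among the 47 genes. It went from 46.0 and 46.6 CPM in Control to 33.6 and 31.7 CPM in TGFB1, a log2 fold change of −0.50 ± 0.0732 (adjusted p = 1.19e-05). TGFBRi had 50.7 and 41.1 CPM and PI3Ki 41.9 and 41.4 CPM, so that the TGFB1 libraries were the lowest of the 8. PRIM1, the catalytic primase subunit, went from 40.5 and 43.8 to 32.9 and 32.5 CPM (−0.37 ± 0.0736, adjusted p = 0.000525). UNG fell from 37.7 and 36.4 to 31.1 and 29.3 CPM (−0.30 ± 0.0642, adjusted p = 0.0011), and POLD1, the catalytic subunit of polymerase delta, from 24.0 and 20.1 to 18.3 and 17.7 CPM (−0.29 ± 0.076, adjusted p = 0.00501). Of the other polymerase genes, POLE2 (−0.28), POLA1 (−0.21) and POLE (−0.21) fell, and POLD2, POLD3, POLA2 and PRIM2 lay between −0.10 and 0.08 without passing. Among clamp genes RFC1 (−0.25), RFC3 (−0.24), RFC4 (−0.21) and PCNA (−0.20, adjusted p = 0.0428) fell, although the RFC3 values of the groups overlapped (42.9 and 35.6 CPM against 35.7 and 30.7 CPM). MSH6 (−0.20), DTL (−0.18) and LIG1 (−0.18) complete the 20.

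RRM2 was the gene that rose. It had 86.9 and 95.6 CPM in Control and 108 and 108 CPM in TGFB1, a log2 fold change of 0.24 ± 0.0637 (adjusted p = 0.00584). The 2 TGFB1 libraries lay above the 6 others, of which TGFBRi had 97.1 and 102 CPM and PI3Ki 88.5 and 93.5 CPM. The other nucleotide enzymes did not pass, with RRM1 at −0.16 (adjusted p = 0.0637), TYMS at 0.04 and TK1 at −0.01. Neither did the cyclin E genes, with CCNE1 at 0.12 and CCNE2 at 0.17, nor the RPA genes, with values from −0.17 (RPA3) to 0.13 (RPA2). The 21 calls became 12 without Control r1, 8 without Control r2, 9 without TGFB1 r1 and 12 without TGFB1 r2, and 12 without the replicate term.

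TGFBRi called none of the 47 genes, against 2.54% of all genes in either direction. At an unadjusted p under 0.05 there were 3, DESeq2 also called 0, and without TGFBRi r1 there were 4. The median was 0.01, and the values ran from CCNE1 at −0.14 to POLA2 at 0.17.

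Under PI3Ki 3 of the 47 genes passed in the libraries as a whole, with 1 rise and 2 falls, against 5.83% and 6.83% of all genes. Both are smaller shares than those over all genes. TK1, the thymidine kinase that salvages thymidine, went from 184 and 186 CPM in Control to 156 and 151 CPM (−0.27 ± 0.0672, adjusted p = 0.0101). Both PI3Ki libraries lay below both Control libraries, while TGFB1 had 191 and 175 CPM on either side of Control. POLD3 went from 52.5 and 51.6 to 45.7 and 43.7 CPM (−0.22 ± 0.0644, adjusted p = 0.0272). CCNE1 went from 12.7 and 12.9 to 15.2 and 14.99 CPM (0.24 ± 0.0724, adjusted p = 0.0309). The 35 genes below 0 had small values, and the median was −0.05. These 3 calls rest on each library of the comparison, since leaving out Control r1, Control r2, PI3Ki r1 or PI3Ki r2 left 0, as did leaving out the replicate term. Without TGFBRi r1 or r2, which are in the fit for the spread, there were 9.

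TGFB1 and PI3Ki share the Control libraries, so they were compared with each other directly. 4 genes were higher and 11 lower in TGFB1 than in PI3Ki, against 18.7% and 15.3% of all genes. The higher genes were TK1 (0.25), RRM2 (0.24), POLD3 (0.20) and TYMS (0.20). The largest lower ones were CDCA7 (−0.35, adjusted p = 0.000601), UNG (−0.30, adjusted p = 0.00072), MCM5 (−0.25, adjusted p = 0.00422) and RPA1 (−0.24, adjusted p = 0.00379). On the TMM scale MCM5 had 61.0 and 60.9 CPM in TGFB1 and 72.9 and 72.0 CPM in PI3Ki, on either side of Control (66.6 and 66.6 CPM). The median of the 47 genes was −0.12. Without the TMM factors, values against Control would move by −0.10 for PI3Ki and by 0.01 for TGFB1. Every value of this direct comparison would then move upward by an amount similar in size to that median. Which calls would remain was not tested. The other lower genes were GINS1, GINS2, MCM4, MCM6, CDT1, POLD2 and RPA3. The 15 calls became 6 without PI3Ki r1, 4 without PI3Ki r2, 8 without TGFB1 r1, 6 without TGFB1 r2, 23 without either TGFBRi library and 8 without the replicate term.

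**Figure D4:**
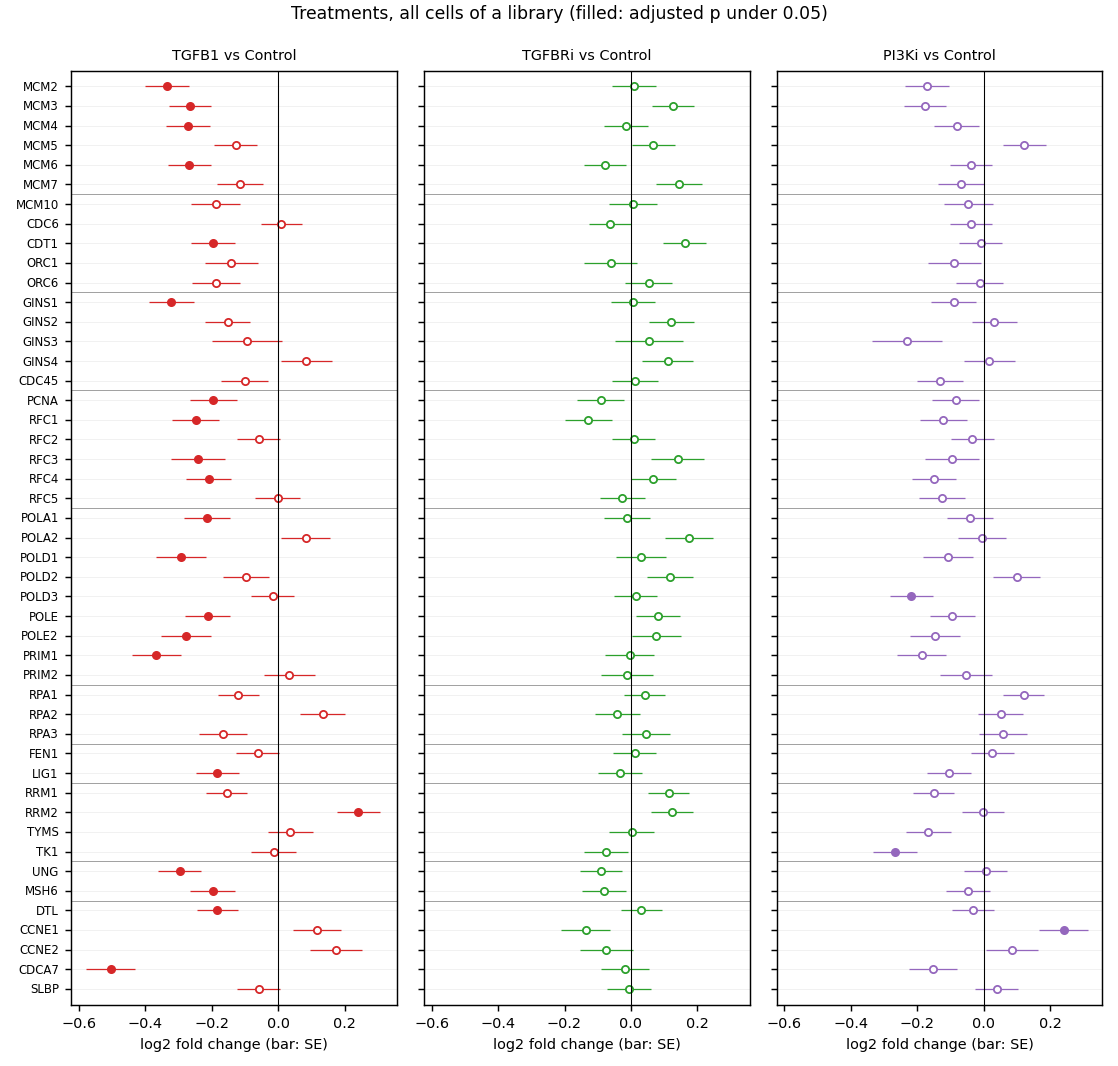
Log2 fold change against Control (x axis) with its SE for each gene (y axis) in the sums over all cells of a library, for TGFB1, TGFBRi and PI3Ki (n = 2 libraries each). Filled points have an adjusted p under 0.05, and there are 21, 0 and 3 of them, with CDCA7 in TGFB1 the lowest at −0.50.

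Without primed cells the changes under TGFB1 were fewer. In drug-susceptible cells 6 genes fell and 3 rose, against 6.32% and 8.56% of 17914 genes, and the median was −0.09. CDCA7 again led the falls (46.3 and 47.4 CPM in Control, 36.6 and 34.8 CPM in TGFB1, −0.39, adjusted p = 0.00047), and PRIM1, RFC1, MCM2, POLD1 and GINS1 followed with −0.28 to −0.22. Both cyclin E genes rose here. CCNE2 went from 12.6 and 13.3 to 17.3 and 15.03 CPM (0.32, adjusted p = 0.00757) and CCNE1 from 12.8 and 13.1 to 15.3 and 15.4 CPM (0.25, adjusted p = 0.0233), and the third rise was that of RRM2 (0.24). These 9 calls became 1 without TGFB1 r1, 3 without TGFB1 r2, Control r1 or Control r2, and 14 without a TGFBRi library. Without the replicate term 1 of the 9 passed. PI3Ki gave 1 rise (CCNE1, 0.22) and 2 falls (TK1, −0.28, and POLD3, −0.23), against 5.89% and 6.22% of genes, again smaller shares than over all genes. Without Control r1 there was 1 such call, without Control r2, PI3Ki r1 or PI3Ki r2 there were 0, without a TGFB1 library 2, without a TGFBRi library 10 and without the replicate term 0. TGFBRi called 0 genes, against 2.81%, with 3 at an unadjusted p under 0.05, 0 with DESeq2 and 4 without TGFBRi r1.

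Drug-susceptible cells called S and G1 were then tested apart, and the genes did not move alike in them. The drug-susceptible class held different clusters in each group. Cluster 3 made up 85.7% and 64.9% of the drug-susceptible G1 cells of TGFB1 r1 and r2 and 52.9% and 38.8% of the S cells, against 2.06% and 2.99% of G1 and 1.53% and 1.40% of S cells in Control. Cluster 6 made up 46.9% and 33.9% of the G1 cells and 24.6% and 15.4% of the S cells of PI3Ki, against 6.64% and 2.72% and then 2.45% and 0.66% in Control. In Control most drug-susceptible G1 cells were in cluster 0 (74.6% and 53.8%). The part of this makeup in the values that follow was not tested. In S cells TGFB1 raised 6 genes and lowered 1, against 7.37% and 5.28% of 15445 genes. CCNE2 went from 29.6 and 30.1 CPM in Control to 42.8 and 39.6 CPM (0.46 ± 0.0763, adjusted p = 3.98e-05), and CCNE1 from 18.9 and 18.7 to 24.0 and 24.6 CPM (0.37, adjusted p = 0.00183). RRM2 went from 138 and 144 to 171 and 178 CPM (0.31, adjusted p = 0.00131). For these 3 genes both TGFB1 libraries lay above both Control libraries. TYMS (0.27), CDC6 (0.26) and RPA2 (0.25) rose too, and CDCA7 fell from 68.1 and 68.0 to 59.6 and 56.7 CPM (−0.23, adjusted p = 0.0451). The median of the 47 genes was 0.03. The 7 calls became 3 without Control r1, Control r2 or TGFB1 r1, and 14 without a TGFBRi library.

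PI3Ki raised 4 genes in S cells and lowered 1, against 4.47% and 4.97% of genes. The rises were GINS4 (0.28, adjusted p = 0.0479), CCNE1 (0.27, adjusted p = 0.03), MCM5 (0.23, adjusted p = 0.0293) and RRM2 (0.20, adjusted p = 0.0455). MCM5 went from 117 and 113 to 137 and 133 CPM. TK1 fell from 225 and 217 to 201 and 183 CPM (−0.20, adjusted p = 0.0486). All 5 lay near the threshold. There were 0 calls without Control r2, PI3Ki r1 or PI3Ki r2, 1 without Control r1, 2 without a TGFB1 library, 8 without a TGFBRi library, 0 without the replicate term and 0 with DESeq2. TGFBRi called 0 genes (2.63% of all), with 5 at an unadjusted p under 0.05, 0 with DESeq2 and 5 without TGFBRi r1.

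In cells called G1, TGFB1 and PI3Ki lowered replication genes and TGFBRi called none. TGFB1 lowered 19 and raised 0, against 7.15% and 8.66% of 14866 genes, and the median was −0.23. CDCA7 went from 43.2 and 42.4 CPM to 29.3 and 28.8 CPM (−0.56 ± 0.0824, adjusted p = 1.72e-05), MCM2 from 22.3 and 22.0 to 16.5 and 15.4 CPM (−0.48, adjusted p = 0.000517), and CDT1 from 29.0 and 27.5 to 19.4 and 21.8 CPM (−0.46, adjusted p = 0.00074). In each of these the TGFB1 libraries lay below the Control libraries. RFC3 (−0.44), PRIM1 (−0.41) and MCM4 (−0.37) came next. 5 of the 6 helicase genes were among the 19 (MCM2, MCM3, MCM4, MCM6 and MCM7), with 4 of the 6 clamp genes (PCNA, RFC1, RFC3 and RFC4). The others were GINS2, LIG1, MSH6, POLA1, RPA3, RRM1 and TK1. There were 6 calls without Control r1, 11 without Control r2, 4 without TGFB1 r1, 8 without the replicate term and 11 with DESeq2.

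PI3Ki lowered 15 genes in G1 cells and raised 0, against 6.77% and 6.24% of genes, and the median was −0.20. 3 of the 4 nucleotide enzymes were among them. TYMS went from 24.8 and 29.1 CPM in Control to 14.8 and 18.5 CPM (−0.70 ± 0.0858, adjusted p = 3.04e-06), TK1 from 120 and 126 to 79.4 and 84.4 CPM (−0.58, adjusted p = 3.04e-06) and RRM1 from 42.3 and 40.5 to 29.8 and 31.3 CPM (−0.44, adjusted p = 0.000618). All 3 were lower in both PI3Ki libraries than in both Control libraries. MCM10 went from 6.29 and 7.57 to 4.32 and 4.60 CPM (−0.65, adjusted p = 0.00103), POLE2 from 7.93 and 7.39 to 5.69 and 5.36 CPM (−0.48, adjusted p = 0.01), and RFC5 by −0.42 (adjusted p = 0.0116). The others were CDC45, CDC6, CDCA7, LIG1, MCM2, MCM3, MCM4, MCM7 and RFC4. Calls fell to 7 without Control r1 or r2, 5 without PI3Ki r1, 2 without PI3Ki r2, 6 without the replicate term and 7 with DESeq2. TGFBRi called 0 genes in G1 cells (1.41% of all), with 7 at an unadjusted p under 0.05, 0 with DESeq2, 1 without Control r1 and 2 without TGFBRi r1.

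Whether the effect differed between cells called G1 and S was tested directly, in 1 fit of 16 sums with library as a block, a test that was added after the data were seen. Under TGFB1 the effect was lower in G1 than in S cells for 28 of the 47 genes and higher for 0, against 2% of 15358 genes lower. The median of G1 minus S was −0.28 on the log2 scale, and all 47 genes lay below 0, against a median of −0.01 over all genes. GINS2 differed by −0.51 ± 0.07 (adjusted p = 2.37e-07), RFC5 by −0.50, TYMS by −0.48, RFC3 by −0.46, CDC45 by −0.45 and MCM2 by −0.42. Under PI3Ki the effect was lower in G1 cells for 27 genes and higher for 0, against 2.46% of genes lower, with a median of −0.23 and 46 genes below 0. TYMS (−0.81), MCM10 (−0.77), GINS4 (−0.57), RRM1 (−0.53), RFC5 (−0.53) and LIG1 (−0.46) led.

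Of the 28 genes under TGFB1, 17 are in the Seurat list and 11 are not, and of the 27 under PI3Ki, 14 are and 13 are not. Part of the genes may thus have set the phase calls, and the part of the calls in this difference was not tested. TGFBRi gave 0 calls among the 47 genes, with 3 higher and 1 lower among all 15358 genes. With so few calls over all genes, the 0 is no result about the 47. Of the 47, 9 had an unadjusted p under 0.05 (the share over all genes is not given), 12 lay below 0 and the median was 0.05. DESeq2 was not run on this difference. The 28 became 17 without Control r1, 10 without Control r2 and 6 without TGFB1 r1, and the 27 became 16 without Control r1, 12 without Control r2 and 17 without PI3Ki r1. The TMM-scaled summed level of the 47 genes in drug-susceptible G1 cells was 1816 and 1788 CPM in Control, 1505 and 1553 in TGFB1, 1837 and 1898 in TGFBRi, and 1578 and 1614 in PI3Ki. In S cells it was 4204 and 4125, 4311 and 4223, 4232 and 4186, and 4370 and 4316 CPM in the same order. Scaled by library total alone, the G1 sums were 1819 and 1861 CPM in Control, 1516 and 1638 in TGFB1 and 1487 and 1504 in PI3Ki. The S sums on that scale were 4196 and 4223, 4321 and 4423, and 4210 and 4154 CPM, so that PI3Ki lay above Control in S cells with TMM alone. G1 cells made up 34.0% and 32.7% of Control, 44.1% and 44.1% of TGFB1, 31.0% and 32.04% of TGFBRi, and 43.6% and 44.1% of PI3Ki libraries.

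**Figure D5:**
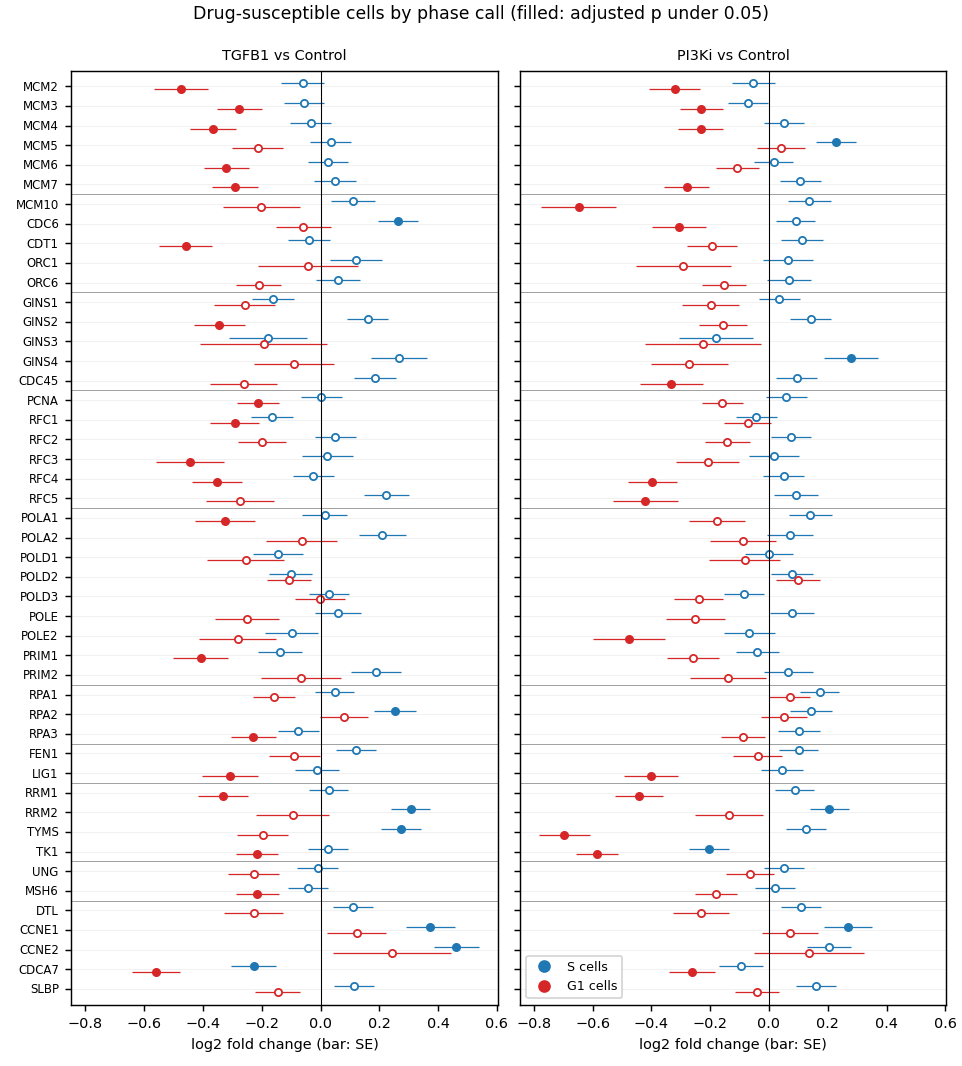
Log2 fold change against Control (x axis) with its SE for each gene (y axis) in drug-susceptible cells called S (blue) and G1 (red), for TGFB1 and PI3Ki (n = 2 libraries each). Filled points have an adjusted p under 0.05. Under TGFB1 these are 7 in S and 19 in G1 cells, under PI3Ki 5 and 15.

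A list of 45 other genes of the pathway (further ORC and polymerase subunits, chromatin assembly, E2F and checkpoint genes) was set beside the 47. With TGFB1, 16 of them fell and 2 rose in the sums over all cells, against 12.7% and 16.3% of all genes, and the median was −0.13. CDK2, the kinase partner of cyclin E, had 169 and 163 CPM in Control and 109 and 124 CPM in TGFB1 (−0.52, adjusted p = 4.3e-06). CDC25A, the phosphatase that activates it, was at −0.33. POLD4, the smallest subunit of polymerase delta, rose from 29.0 and 33.3 to 50.6 and 52.0 CPM (0.73, adjusted p = 1.58e-08), while POLD1 fell. E2F7, a repressor of E2F targets, rose by 0.46 with TGFB1 and fell with PI3Ki (−0.34). PI3Ki lowered 4 genes of this list and raised 1 (POLD4, 0.25), against 6.83% and 5.83% of all genes. TGFBRi called 0, against 2.54%, with 5 at an unadjusted p under 0.05.

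Mitotic genes were set beside them as well. Of 20, TGFB1 raised 3 (AURKA, UBE2C and TOP2A) and lowered 1 (BUB1) in the sums over all cells, against 16.3% and 12.7% of all genes, with a median of 0.02. PI3Ki lowered 13 and raised 0, against 6.83% and 5.83%, with a median of −0.24. In the direct comparison 17 of the 20 were higher in TGFB1 than in PI3Ki and 0 lower, against 18.7% and 15.3% of all genes. The share of G2M cells was 29.3% and 29.8% in Control, 26.8% and 28.7% in TGFB1, 29.1% and 31.0% in TGFBRi, and 22.6% and 23.8% in PI3Ki. In drug-susceptible G1 cells TGFB1 and PI3Ki each lowered 11 of the mitotic genes and raised 0, against 7.15% and 6.77% of all genes lower. The medians were −0.30 and −0.35, against −0.23 and −0.20 over the 47 replication genes. Of the 44 other pathway genes tested there, TGFB1 lowered 13 and PI3Ki 10, and each raised 1. The fall in G1 cells was thus not particular to the 47 genes. Of the 45 other pathway genes 14 are in the Seurat list for S phase, and mitotic genes may have entered the phase calls too. The part of the calls in these falls was not tested.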

How the data were processed

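WM989 and WM983B cells were profiled by droplet scRNA-seq, and sorted WM989 cells by ATAC-seq. The scRNA-seq values deposited by the authors are UMI counts from Cell Ranger (hg38), whose libraries were aggregated with no equalizing of depth, after removal in Seurat V3 of cells with few genes, of doublets by their high gene number, and of cells with a high mitochondrial percent. Cell labels deposited by the authors give the well or library, cluster, state, phase and percent of mitochondrial reads, and no further cells were removed. For ATAC-seq the authors used bowtie2 2.3.4.1 for alignment, samtools 1.1 and picard for filtering, and MACS2 2.1.1.20160309 for peak calls per library. The deposited fold enrichment of a peak is a ratio over local background, and 869666 repeated peak lines were removed. The UCell scores among the labels were not used here, and lineage barcode counts served only to pick barcoded cells for an alternative in the first experiment.

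For each library, state, cluster or phase, UMIs were summed and scaled to CPM. Primed clusters were 2, 8 and 9 in the first, 0 and 2 in the second and 4 and 10 in the third experiment. Cells are not replicates, so the first 2 experiments carry no test, and a gene counted as past the fold when its CPM ratio exceeded 1.5 in r1 and in r2, with at least 20 CPM in one of the states. Exact Poisson intervals at 95% cover counting error only. The third experiment (median 13013 to 21720.5 UMIs per cell) was tested in edgeR 4.0.16 with R 4.3.3, on sums over each library, with filterByExpr, TMM scaling and the two-sided quasi-likelihood test over all genes. With treatment and replicate as terms, 3 residual degrees of freedom remained, and p-values were adjusted by Benjamini-Hochberg with a threshold of 0.05. The SE was taken as the size of the log2 fold change over the root of its F statistic.

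Replicate was a term because, per the methods, cells of a well were split over the 4 plates, which was done in parallel for 2 samples. Deviations of r2 from r1 were correlated over genes for every pair of treatments (Pearson's r 0.323 to 0.547). Replicates are called Mix and Primed by the sample labels but r1 and r2 by the cell labels, and the match was not settled. Alternatives were no replicate term, DESeq2 1.42.0, no filter, equal cell numbers (3692 per library), other thresholds and scalings, and leaving out each library or well. Another, in the first experiment, kept only barcoded cells, and its outcome is not given here. Both edgeR fits (of a treatment, and of its difference between phases) were tested on simulated data. Promoter sequences and starts come from RefSeq (GRCh38.p14), matched by symbol. All 47 genes could be named. In each edgeR comparison those past the threshold were counted by direction and at least the 6 largest changes named. The genes, lists and motifs were chosen with earlier results of these data known. Tables were made with Python 3.11.15, pandas 2.3.3 and matplotlib 3.10.9.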

Additional observations from a re-analysis of the deposited data

Results flagged for a closer look

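For 21 genes the difference between primed and drug-susceptible cells went one way in every well of WM989 and the other way in the library of WM983B. These are log2 differences of CPM over all cells, and the difference between the lines was not tested, since WM983B is 1 library. Their WM983B values lay between 0.00213 and 0.162. The share of all genes that go such opposite ways is not given here, so the 21 cannot be read as a result about these genes. Of 6316 genes at 20 CPM or more in WM989, 38.2% were lower in every well, and the WM983B median over all genes at 20 CPM or more there was 0.02. Of the 21 genes, 6 were past 1.5-fold in WM989, and these are given singly. In WM989 their values were −1.16 for GINS2, −1.02 for UNG, −0.99 for CDCA7, −0.98 for TYMS, −0.94 for MCM6 and −0.63 for PRIM1, with 8 of 8 wells below 0 for each gene. In WM983B they were 0.0565 for GINS2, 0.0776 for UNG, 0.017 for CDCA7, 0.125 for TYMS, 0.00766 for MCM6 and 0.0274 for PRIM1. The WM983B values are all small, and the counting intervals of the states overlap for GINS2, UNG, CDCA7, MCM6 and PRIM1 but not for TYMS.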

How the results depend on the processing

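The counts of genes past the threshold depended on the libraries and on the replicate term, and over the 97 values of single genes past the threshold against Control, or of TGFB1 against PI3Ki, none changed its direction under the alternatives run. Of these, 716 alternative values stayed past the threshold in the same direction and 390 did not pass. Without the replicate block, 12 of the 47 genes passed for TGFB1 in all cells (21 with the block), 0 for PI3Ki (3), 8 for TGFB1 against PI3Ki (15), 1 for TGFB1 in drug-susceptible cells (9), 0 for PI3Ki there (3), 0 for PI3Ki in S cells (5), 8 for TGFB1 in G1 cells (19) and 6 for PI3Ki in G1 cells (15). It changed no other count by over 1.5 times. DESeq2 gave 0 for PI3Ki in S cells, 11 for TGFB1 in G1 cells and 7 for PI3Ki in G1 cells, and 16 for TGFB1 in all cells. Without the filter on low counts 3 genes passed for PI3Ki in S cells. With equal cell numbers the counts in all cells were 22 for TGFB1 and 3 for PI3Ki.

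Leaving out 1 library at a time gave 8 to 26 genes for TGFB1 in all cells, 0 to 4 for TGFBRi, 0 to 9 for PI3Ki and 4 to 23 for TGFB1 against PI3Ki. In drug-susceptible cells it gave 1 to 14, 0 to 4 and 0 to 10 in the order TGFB1, TGFBRi and PI3Ki, in S cells 3 to 14, 0 to 5 and 0 to 8, and in G1 cells 4 to 21, 0 to 2 and 2 to 18. The difference between G1 and S cells gave 6 to 29 for TGFB1, 0 for TGFBRi and 12 to 25 for PI3Ki. A lone library of a treatment is then assumed to vary like the other groups. Genes that passed in every setting were CDCA7, MCM2, PRIM1 and UNG for TGFB1 in all cells, CDCA7 and UNG for TGFB1 against PI3Ki, CDCA7 for TGFB1 in drug-susceptible cells, CCNE2 for TGFB1 in S cells, CDCA7 and MCM2 for TGFB1 in G1 cells, and TYMS and TK1 for PI3Ki in G1 cells. In the comparison of states in the first experiment, 13 genes past the fold became 8 without well 2 and 11 to 15 without any other well. In the third, 15 became 27 with libraries of at least 50 primed cells, a count given without its share over all genes. Of the promoters, 20 held the E2F motif and 10 the core. The cause of these changes was not tested, beyond the smaller number of libraries. Leaving out libraries in S and G1 cells, the test of their difference, the wells and the settings for the third experiment's states were chosen after seeing the data. With 2 libraries a group, the spread behind these tests rests on few values.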
